A study of Mus musculus with 3 samples.

Results

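The cell cycle module described here holds 40 genes, chosen by name from the 32285 genes of the feature table, and every member was listed there exactly once. 17 members serve the start of the cycle and DNA replication (S phase), 20 act in G2 and mitosis, 2 encode histones of the kind made while DNA is copied (Hist1h1b and Hist1h2ap), and Stmn1 encodes stathmin, a protein that destabilises microtubules. The transcripts were counted cell by cell, in droplets, in bone-lining cells (BLCs), which cover the surface of bone. All 3 libraries belong to 1 group, labelled WT for genotype with bone marrow as the tissue and made from femora, tibias and iliac bones of mice that were, by the general methods of the study, young adults. The cells were released with collagenase and sorted as Alcam+Sca-1- cells that lacked CD45, Ter119 and CD31, which are surface proteins of leukocytes, erythroid cells and endothelium. No treatment, transgene or deletion distinguishes the libraries, so each comparison is between classes of cells within the same libraries. The labels do not say whether a library came from 1 mouse or from pooled mice, and the p-values therefore speak of these libraries only. They measure how far differences between classes vary from library to library, with the spread estimated over all classes together.

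A cell that commits to division first loads the minichromosome maintenance (MCM) helicase onto origins of replication, with Cdt1 as loader and geminin (Gmnn) as its brake. E2F factors then switch on cyclin E, the MCM genes and the enzymes that make deoxynucleotides. Later, B-Myb and Foxm1 switch on the genes of mitosis, which include cyclin B with its kinase Cdk1, the Aurora and Polo-like kinases, spindle motors and the checkpoint proteins Bub1 and Bub1b. In bone, the best known dividing cells are the flat chondrocytes that form columns in the growth plate. They leave the cycle as they enlarge into hypertrophic chondrocytes, whereas erythroblasts and early granulocytes in the neighbouring marrow divide intensively.

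The promoters of the members were searched for motifs of cell cycle genes. For 33 of the 40 members (31 matched by symbol, 2 by synonym) the RefSeq table of build GRCm38.p6 held the 300 bases from 250 before to 50 after the gene start. Ccna2, Aurkb, Tpx2, Mcm4, Ccne2, Gmnn and Stmn1 were not matched. A cell cycle homology region (CHR, TTTGAA or TTCGAA on either strand) was present in 14 of 17 mitotic members (82.4%), against 19.4% of 27025 genes in the table. A CCAAT box was present in 15 of 17 (88.2%, against 37.9%), and both motifs in 14 of 17 (82.4%, against 7.7%). Birc5, Ccnb1 and Nusap1 had no CHR in this window. The CCAAT box was not particular to the mitotic members, as 9 of 14 S-phase members (64.3%) held it too. Both histone members held the CHR and the CCAAT box. E2F-like letters (TTGGCGC as well as TTCGCGC and also TTCCCGC, on either strand, which can overlap each other) were present in 8 of 14 S-phase members (57.1%) and 3 of 17 mitotic members (17.6%), against 8.21% of all genes, and the CHR in 2 of the 14 (14.3%). Each is a match of letters and not a measured site.

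The promoters of Cdc20 (chr4:118437294-118437593, minus strand) and Plk1 (chr7:122159185-122159484, plus strand) are shown because they carry the mitotic pair of motifs, with CHR and CCAAT letters in capitals, 5′ to 3′ on the strand of the gene. Those of Mcm3 (chr1:20820263-20820562, minus strand) and Mcm6 (chr1:128359656-128359955, minus strand) stand for the S-phase members, with E2F-like letters in capitals. The CCAAT boxes that Mcm3 and Mcm6 also hold are not marked.
Cdc20: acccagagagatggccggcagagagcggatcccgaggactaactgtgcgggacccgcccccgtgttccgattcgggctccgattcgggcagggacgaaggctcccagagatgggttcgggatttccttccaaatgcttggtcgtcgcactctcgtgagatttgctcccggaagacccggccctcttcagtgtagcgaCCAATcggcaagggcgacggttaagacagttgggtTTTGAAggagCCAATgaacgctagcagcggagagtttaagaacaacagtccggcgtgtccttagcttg
Plk1: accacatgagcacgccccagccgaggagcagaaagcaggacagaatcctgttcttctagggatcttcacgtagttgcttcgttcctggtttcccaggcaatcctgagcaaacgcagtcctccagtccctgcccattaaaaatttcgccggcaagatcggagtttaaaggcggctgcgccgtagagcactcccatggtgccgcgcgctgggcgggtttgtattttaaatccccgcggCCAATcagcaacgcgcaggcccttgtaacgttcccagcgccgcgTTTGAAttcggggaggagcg
Mcm3: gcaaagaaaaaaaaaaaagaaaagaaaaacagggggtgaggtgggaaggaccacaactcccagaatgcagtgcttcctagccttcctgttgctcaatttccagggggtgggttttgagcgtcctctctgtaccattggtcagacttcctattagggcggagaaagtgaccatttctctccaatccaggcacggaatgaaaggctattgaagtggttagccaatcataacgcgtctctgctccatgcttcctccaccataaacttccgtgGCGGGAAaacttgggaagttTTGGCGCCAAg
Mcm6: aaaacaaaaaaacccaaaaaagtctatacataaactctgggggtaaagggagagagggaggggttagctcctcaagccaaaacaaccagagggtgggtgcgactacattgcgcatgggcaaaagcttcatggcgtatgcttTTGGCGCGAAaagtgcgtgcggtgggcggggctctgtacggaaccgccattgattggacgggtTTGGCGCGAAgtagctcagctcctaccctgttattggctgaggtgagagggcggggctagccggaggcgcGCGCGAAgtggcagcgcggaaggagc

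The libraries held 2606, 7172 and 10529 barcodes with 20985636, 79905165 and 69890252 unique molecular identifiers (UMIs, each the tag of 1 captured transcript). After filtering, 2476, 6363 and 9393 cells remained (18232 in all), with median depths of 5614, 9704 and 5814 UMIs per cell. Cells were assigned to classes, called gates here, from marker genes alone, and no member of the module was used. Of the 23 gates, 7 hold chondrocytes. Library 1 stood apart. Only 391 of its 2476 cells fell in chondrocyte gates, against 5295 of 6363 in library 2 and 7726 of 9393 in library 3, and its growth plate gate held 20 cells against 1461 and 1713. The calls of the members and of the lists are therefore also given without it. 5, 9 and 28 barcode sequences were shared between library pairs, and 1079 cells (5.92%) lay close to a gate boundary.

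The levels of the gate markers are given over all libraries. The cells were gated by these same markers, so higher levels inside a gate follow from the gating and do not test its label. The growth plate gate had 541 CPM of Prkg2 (CPM is the UMIs of a gene per 1000000 UMIs of the same cells) against 72.6 in all other cells. Matn3, a cartilage matrix protein, had 1894 CPM against 322, while Fgfr3, another marker of this gate, differed less, at 80.4 against 57.1. The gate labelled prehypertrophic and hypertrophic had more of each of its 6 markers than the cells outside it, with Ihh, the hedgehog ligand of prehypertrophic cells, at 20.8 CPM against 0.933, Col10a1, the collagen of hypertrophic cells, at 1287 against 132 and Mmp13 at 137 against 23.1. By level its leading marker was Ibsp, bone sialoprotein, at 38008 CPM against 5855, and it is called the Ibsp-high chondrocyte gate below. The sort was against CD45 and Ter119, yet 454, 191 and 318 cells fell in the 8 haematopoietic gates, among them 284 cells that carried globin transcripts (erythroid gate) and 188 with S100a8 and Elane (granulocyte gate). 212 further cells formed the pan leukocyte gate, where Ptprc, which encodes CD45, stood at 198 CPM against 4.27 outside it.

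The 20 mitotic members together were far more abundant in erythroid cells, granulocytes and pan leukocytes than in any mesenchymal gate. In the erythroid gate their summed level was 4317, 5528 and 6303 CPM in libraries 1, 2 and 3. In the granulocyte gate it was 2347, 2819 and 2773 CPM, and in the pan leukocyte gate 1989, 2384 and 2096 CPM. The ranges of these blood gates did not reach down to those of any mesenchymal gate with at least 10 cells. The order within blood was erythroid first in every library, while the granulocyte and pan leukocyte ranges overlapped.

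Among the mesenchymal gates named for a cell type, the growth plate gate came next in libraries 2 and 3 but not in library 1. Its mitotic members summed to 52.9, 585 and 480 CPM, against 28.1, 186 and 113 CPM in the other 6 chondrocyte gates together. The Ibsp-high gate had 37.5, 139 and 75.2 CPM, and the osteoblast gate 43.0, 93.1 and 102 CPM. Cxcl12-abundant reticular (CAR) cells, the stromal cells that feed blood stem cells, had 64.6, 66.5 and 46.0 CPM. In library 1 the growth plate value rests on 20 cells and was below that of the CAR gate. The unsplit chondrocyte gate, whose cells showed chondrocyte markers but no zone, was uneven, with 29.9, 895 and 107 CPM.

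**Figure D1:**
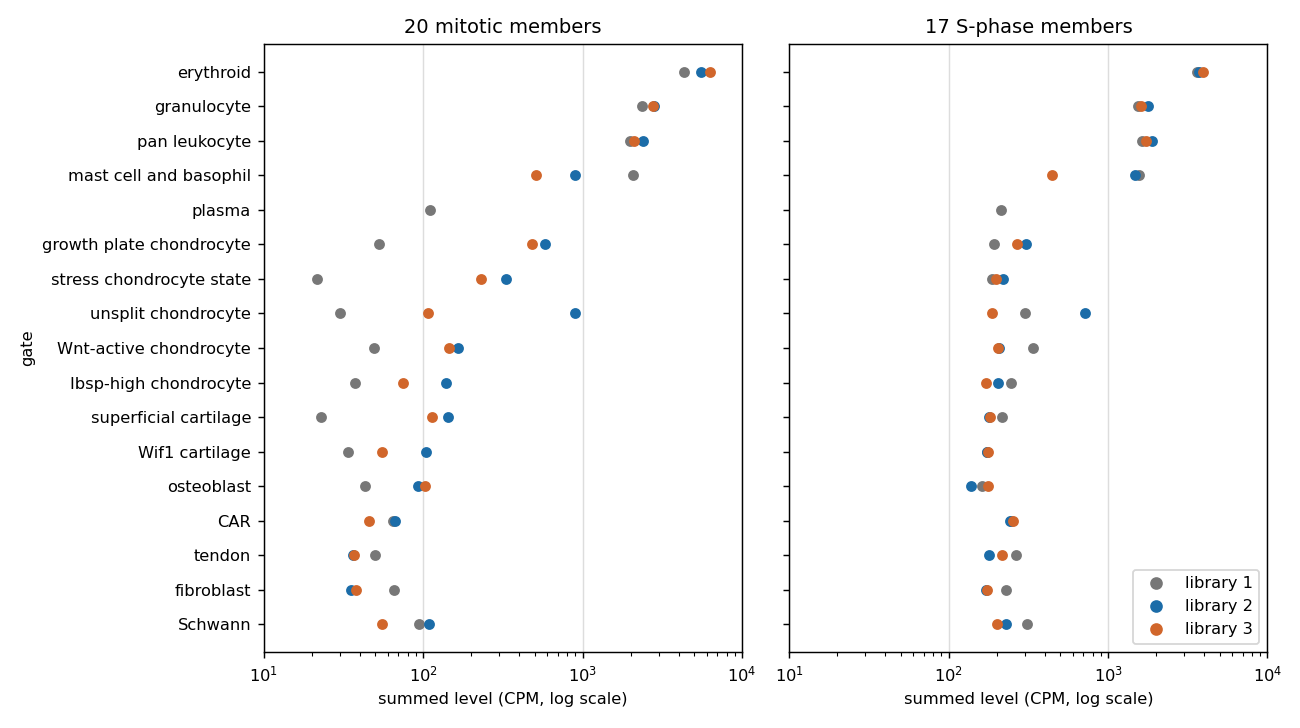
Summed level of the 20 mitotic (left) and 17 S-phase members (right) in each gate, in CPM on a log axis, with 1 point per library where the gate held at least 10 cells. In the mitotic panel the growth plate gate of libraries 2 and 3 (585 and 480 CPM) lies above the CAR gate (46.0 to 66.5 CPM). It lies below the erythroid, granulocyte and pan leukocyte gates. The mast cell and basophil gate of library 3 (513 CPM) falls between the 2 growth plate points, and the plasma gate of library 1 (111 CPM) lies below them. In the S-phase panel most mesenchymal gates lie close together, apart from the unsplit chondrocyte gate of library 2 (719 CPM).

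The S-phase members separated the erythroid, granulocyte and pan leukocyte gates from mesenchyme but hardly separated most mesenchymal gates from each other. Their summed level was 3589, 3710 and 3940 CPM in the erythroid gate. The plasma cell gate of library 1 had only 214 CPM, below the CAR gate of that library, and the mast cell and basophil gate had 1570, 1466 and 447 CPM. In the growth plate gate it was 192, 305 and 268 CPM, in the CAR gate 247, 242 and 252 CPM, and in the other chondrocyte gates 217, 210 and 187 CPM. The growth plate range overlapped both of the others. Pcna, the sliding clamp of DNA polymerase that also acts in repair, made up part of this level in the growth plate, CAR and other chondrocyte gates. It stood at 72.7, 71.8 and 77.2 CPM in the growth plate gate, 115, 73.9 and 77.9 CPM in the other chondrocyte gates and 97.9, 111 and 109 CPM in the CAR gate, and the growth plate gate was below both of the others in every library.

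The cells that supplied the mitotic UMIs differed between libraries. Haematopoietic gates supplied 84.8%, 33.8% and 44.5% of all UMIs of the mitotic members. The erythroid gate alone supplied 59.9%, 14.2% and 18.3%, although it held only 152, 54 and 78 cells. The growth plate gate supplied 0.0370%, 42.7% and 33.6%. A level over all cells of a library therefore describes different cells in different libraries, as for Mki67, the proliferation antigen Ki-67, with 220, 58.0 and 48.9 CPM over all cells.

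Haematopoietic gates together were then compared with the 12 mesenchymal gates together, to see how far the members come from blood cells that passed the sort. UMIs were summed per class and library and tested with edgeR's quasi-likelihood test, with the library as a block and Benjamini-Hochberg adjustment over all genes tested. Of 14315 genes tested, 24.6% were higher in blood, 30.7% were lower and 55.3% passed in either direction, and all 40 members were higher. The log2 differences ran from 1.74 (Pcna) to 5.83 (Hist1h1b) with a median of 4.14, against −0.05 over all genes. Each of the 40 was called under every alternative, which included leaving out any library.

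In the erythroid gate the histone pair varied more between libraries than the summed mitotic or S-phase members. There Hist1h1b, a linker histone, had 838, 2655 and 2706 CPM and Hist1h2ap, a core histone, 908, 2818 and 1546 CPM. Library 1 was lowest for both genes, and in the granulocyte gate library 2 stood out for Hist1h2ap, at 1236, 3000 and 1205 CPM. For comparison, the mitotic members of the erythroid gate summed to 4317, 5528 and 6303 CPM in the same libraries. Messenger RNAs of these histones normally lack the poly(A) tail that the capture uses, and Hist1h2ap belongs to a family of near-identical genes, so its counts are uncertain.

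The cyclin E genes followed the mitotic members least. Ccne1, which encodes cyclin E1, the cyclin that opens S phase, had 137, 118 and 126 CPM in the erythroid gate against 14.2, 21.8 and 16.7 CPM in the granulocyte gate, so the gates did not overlap. The plasma cell gate had 79.7 CPM of Ccne1 in library 1 (172 cells), with 3.93 CPM of Cdc20 and no UMI of Plk1. Its mitotic members summed to 111 CPM there, and 4 of the 172 cells showed at least 5 of them. Across 53 sums of a gate in a library, Ccne1 followed the mean of the mitotic members least among the members (Pearson's r = 0.62 on log2 of CPM plus 10), followed by Ccne2 (0.78) and Pcna (0.79). The sums of a library share its depth and its cells, so these values are a description.

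The growth plate gate was next compared with the other chondrocyte gates, to see in which cartilage cells the members are found. 29 of the 40 members were higher and none was lower, among 13821 genes tested of which 5.82% were higher, 10.6% lower and 16.4% called in either direction. The 29 were 19 of 20 mitotic members, 7 of 17 S-phase members, both histones and Stmn1. The median log2 difference was 1.87 over the mitotic members and 0.66 over the S-phase members, against −0.07 over all genes tested.

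Among regulators of mitosis, Plk1, the Polo-like kinase, had no UMI in library 1 and 5.50 and 2.82 CPM in libraries 2 and 3 of the growth plate gate. The other chondrocyte gates had 0, 1.07 and 0.577 CPM, and the log2 difference was 2.21 ± 0.41 (SE, adjusted p = 0.00030, edgeR). Cdk1, the kinase that drives entry into mitosis, had 0, 35.6 and 32.2 CPM against 0.719, 11.1 and 6.76 CPM (log2 difference 1.87 ± 0.39, adjusted p = 0.0013). Its partners Ccnb1 and Ccna2, cyclins B1 and A2, rose by 1.59 and 1.87 on the log2 scale. In libraries 2 and 3 every value of these genes in the growth plate gate was above both values elsewhere, while the 20 cells of library 1 showed none of them.

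Spindle and chromosome genes gave the same picture. Kif23, a kinesin of the midzone needed for cytokinesis, had 6.61, 18.8 and 14.6 CPM against 0.719, 5.09 and 3.46 CPM (log2 difference 1.88 ± 0.30, adjusted p = 2.4e-05, edgeR). Its value in library 1 of the growth plate gate was 1 UMI in 20 cells, under the floor of 3 UMIs used here. In libraries 2 and 3 its 2 groups of values did not overlap. Birc5, survivin of the chromosomal passenger complex, had 0, 46.4 and 38.8 CPM against 2.88, 11.4 and 7.12 CPM (2.08 ± 0.47, adjusted p = 0.0028). Cdc20, which activates the anaphase-promoting complex, had 0, 26.0 and 21.7 CPM against 0.719, 8.06 and 5.36 CPM (1.80 ± 0.34, adjusted p = 0.00038). Nusap1, a microtubule-binding protein, was the mitotic member that missed the threshold, at 0, 17.7 and 14 CPM against 5.03, 7.70 and 5.22 CPM (1.09 ± 0.42, adjusted p = 0.074).

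**Figure D2:**
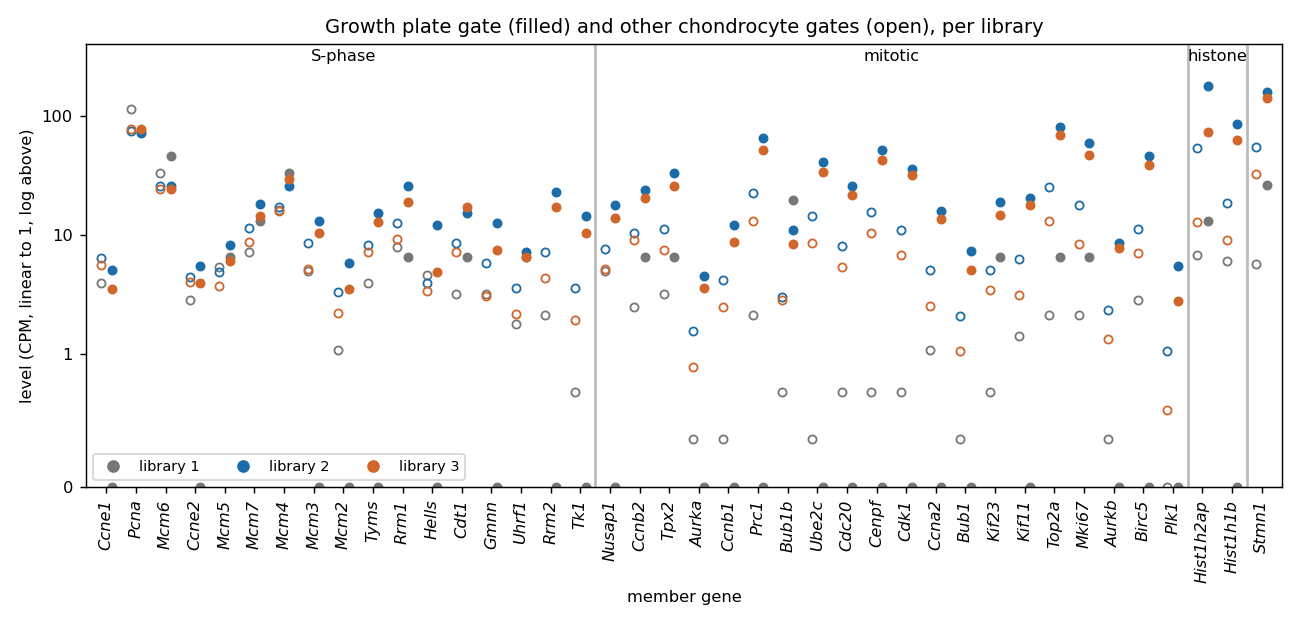
Level of each member in CPM (linear to 1, log above) in the growth plate gate (filled points) and in the other chondrocyte gates (open points), 1 colour per library. For mitotic members the filled points of libraries 2 and 3 lie above the open points, while for Pcna and Mcm6 the points lie together and library 1 of the growth plate gate (20 cells) is often at 0.

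The S-phase members were divided. The 7 that rose were Rrm1 and Rrm2 (the subunits of ribonucleotide reductase), Tk1 (thymidine kinase), Cdt1, Gmnn, Hells (a chromatin remodeller) and Uhrf1 (which guides maintenance of DNA methylation). Tk1 had 0, 14.5 and 10.3 CPM against 0.719, 3.57 and 1.95 CPM (2.07 ± 0.33, adjusted p = 2.4e-05), and Rrm2 had 0, 22.8 and 17.2 CPM against 2.16, 7.28 and 4.37 CPM (1.66 ± 0.33, adjusted p = 0.00057). None of the 6 MCM members passed the test with all libraries, with log2 differences from −0.18 (Mcm6) to 0.66 (Mcm2). Without library 1, Mcm2, Mcm3, Mcm4, Mcm5 and Mcm7 were called higher, by 0.63 (Mcm7) to 0.72 (Mcm3), as they were with clusters in place of gates, and Mcm6 was called in neither. Mcm6 had 46.3, 25.8 and 24.6 CPM in the growth plate gate and 33.1, 25.7 and 24.3 CPM elsewhere, with overlapping groups. Pcna (−0.48 ± 0.25), Tyms (0.73 ± 0.32), Ccne1 (−0.57 ± 0.33) and Ccne2 (0.01 ± 0.29) also missed the threshold.

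These calls rest on libraries 2 and 3 together. Without library 1, 37 members were called, 36 higher and Ccne1 lower, where 44.8% of all genes tested were called. Without library 2 only Kif23 was still called, and without library 3 only Kif23, Bub1b, Rrm2 and Tk1. In both fits the library 1 value of Kif23 in the growth plate gate was 1 UMI. There, 27 and 29 members still had an unadjusted p under 0.05 in the same edgeR test. Some cells in the unsplit chondrocyte gate carried blood markers (given below), and without that gate 31 members were called.

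Against the Ibsp-high gate, whose list was fixed to mark prehypertrophic and hypertrophic cells, all 20 mitotic members were higher, with 6 S-phase members, Hist1h1b and Stmn1. Of 15580 genes tested, 7.37% were higher in the growth plate gate, 7.09% were lower and 14.5% passed in either direction. The median log2 difference of the mitotic members was 2.36 and of the S-phase members 0.80, against 0.06 over all genes. Aurka, Plk1 and Bub1 were at 0 in both gates in library 1, where each gate held 20 cells. Plk1 had 0.291 and 0 CPM in libraries 2 and 3 of the Ibsp-high gate. Kif23 showed 6.61 (1 UMI), 18.8 and 14.6 CPM against 0, 2.91 and 1.52 CPM (2.77 ± 0.41, adjusted p = 2.2e-06, edgeR). Mcm4, a subunit of the helicase, was the MCM member that rose here (33.1, 25.9 and 29.5 CPM against 5.35, 13.7 and 11.2 CPM, 1.07 ± 0.28, adjusted p = 0.0059). DESeq2 called 12 mitotic and 2 S-phase members, edgeR without the library block called 19 members, and without library 3 none was called, although 18 had an unadjusted p under 0.05. Without library 2, Ccnb1 and Kif23 were called, and without library 1, 29 members.

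Against the CAR gate 29 members were higher and 2 were lower, where 19.7% of the 15580 genes tested were higher and 24.2% lower (43.9% in either direction), so that many genes differ between cartilage and stroma. 18 of 20 mitotic members were higher (not Aurka and Nusap1), with 9 S-phase members and both histones. Ccnb1 had no UMI in any of the 814 CAR cells. With a floor of 3 UMIs over the group (0.651 CPM), its pooled level of 10.8 CPM in the growth plate gate was at least 16.6-fold higher. Mcm6 differed here, at 46.3, 25.8 and 24.6 CPM against 12.4, 12.6 and 9.68 CPM (1.53 ± 0.37, adjusted p = 0.00067, edgeR), and its groups did not overlap. The cyclin E genes went the other way. Ccne1 had 0, 5.13 and 3.51 CPM against 13.5, 14.4 and 16.9 CPM (−1.44 ± 0.41, adjusted p = 0.0036) and Ccne2 0, 5.54 and 3.95 CPM against 16.2, 16.2 and 9.68 CPM (−1.63 ± 0.34, adjusted p = 8.6e-05). In both, all libraries were lower in the growth plate gate and the groups did not overlap. 24 members were called without library 1 (Ccne2 among those lost), 18 without library 2 and 23 without library 3 (both cyclin E genes among those lost).

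To compare cells at equal depth, each cell with at least 1000 UMIs was thinned to 1000 UMIs and asked for at least 2 different mitotic members. Cells with fewer UMIs were left out, and this loss differed between gates. In library 3, 523 of 607 osteoblasts and 1705 of 1713 growth plate cells remained. In the growth plate gate this share was 0 of 20 cells in library 1, which allows a share of up to 15% by a limit of 3 counts (16.8% by the exact interval), then 5.46% (79 of 1448, 95% interval 4.34 to 6.75, exact binomial) in library 2 and 4.46% (76 of 1705, 3.53 to 5.55) in library 3. The intervals cover counting error only. The mean was 3.30% ± 2.90 (SD, n = 3), or 4.96% in libraries 2 and 3. In the other chondrocyte gates it was 0 of 371 cells, which allows up to 0.809% (0.989% by the exact interval), then 1.24% (0.913 to 1.65) and 0.726% (0.526 to 0.976). In libraries 2 and 3 the intervals of these gates did not overlap. No test was run, since 3 pairs of values cannot give a two-sided exact sign-flip p below 0.25.

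The shares in other mesenchymal gates were mostly below those of the growth plate gate in libraries 2 and 3. CAR cells showed 0.167%, 1.14% and 0%, and osteoblasts 0%, 0.667% and 0.382%. In library 1 the plasma cell gate, which is haematopoietic, had 2.34%. Within cartilage, the gate of the stress state (Sfn, Krt16 and Tnfaip6) had 0%, 3.29% and 2.16%, and the Wif1 gate 0%, 0.670% and 0.231%. The unsplit gate had 0%, 5.15% and 3.45%. In libraries 2 and 3 the intervals of the stress state and unsplit gates overlapped those of the growth plate gate. The dividing blood gates lay far higher, with 87.1%, 74.5% and 76.5% in the erythroid gate, 49.0%, 61.7% and 58.0% in the granulocyte gate and 28.6%, 42.9% and 40.9% in the pan leukocyte gate.

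For S-phase members the same measure separated the growth plate gate less clearly. At least 2 were seen in 0%, 3.04% and 2.76% of its cells, in 2.34%, 4.55% and 3.92% of CAR cells and in 1.62%, 2.19% and 1.40% of cells in the other chondrocyte gates. Against the other chondrocyte gates the intervals overlapped in library 2 (2.22 to 4.06 against 1.75 to 2.71) and did not in library 3 (2.03 to 3.65 against 1.12 to 1.73). The growth plate share was below that of the CAR gate in every library, inside the wide intervals of that gate in libraries 2 and 3. With at least 3 S-phase members it was 0%, 1.24% and 0.587%, against 0.167%, 1.14% and 0% in CAR cells. Without thinning the growth plate values were 35.0%, 55.5% and 38.4% against 33.5%, 31.5% and 20.4% in CAR cells, at median depths of 6162, 17203 and 9321 UMIs against 5806, 6472 and 3818. Erythroid cells showed 74.8%, 82.4% and 76.5% after thinning.

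The mitotic signal of cartilage sat in few cells that expressed the group together. Of 13412 cells in chondrocyte gates, 10071 showed none of the 20 mitotic members and 2411 showed 1. Only 83 cells showed 5 to 9, 58 showed 10 to 14, 133 showed 15 to 19 and 39 showed all 20. Counts of 15 to 19 were thus more frequent than 10 to 14 or 5 to 9, and the median depth rose from 6749 UMIs in cells with none to 29411 in cells with all 20. In the growth plate gate at least 5 members were seen in 0 of 20, 123 of 1461 (8.42%) and 87 of 1713 (5.08%) cells. These cells held 92.6% and 89.4% of the mitotic UMIs of that gate in libraries 2 and 3. In the rest of the gate the level was 52.9, 49.9 and 55.7 CPM, close to that of CAR cells outside the few with at least 5 (62.4, 54.2 and 46.0 CPM).

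**Figure D3:**
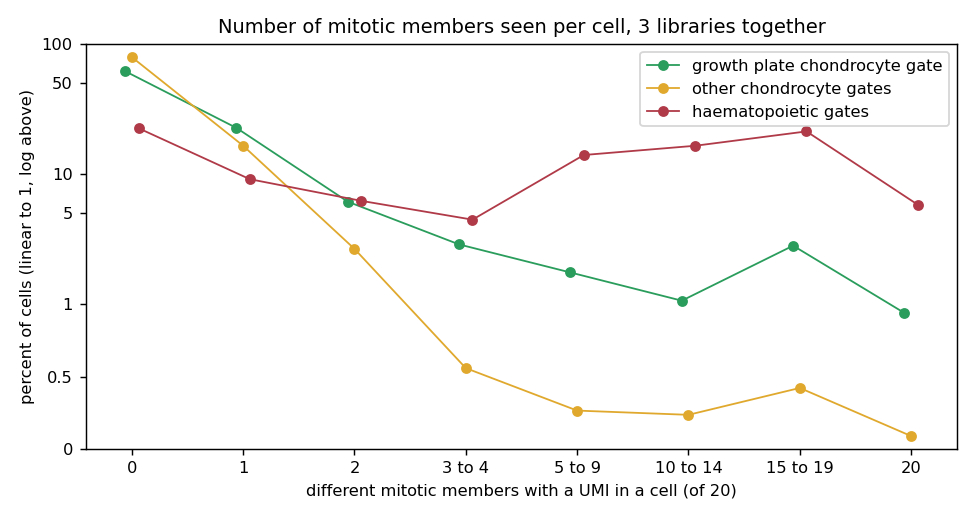
Percent of cells (linear to 1, log above) by how many of the 20 mitotic members had a UMI, for the growth plate gate, the other chondrocyte gates and the haematopoietic gates, over all libraries. The growth plate curve falls to 1.06% at 10 to 14 members and rises again to 2.82% at 15 to 19, while the haematopoietic curve is highest at 0 (22.5%) and at 15 to 19 (21.3%).

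The cells with at least 5 mitotic members were checked for markers of blood, as a doublet of a chondrocyte and a dividing blood cell would carry both. 2 of the 210 such growth plate cells (0.952%) had at least 2 erythroid or leukocyte markers, against 0.710% of growth plate cells with no mitotic member. Cells with at least 3 markers of a blood list and a mean standardised level above 0.5 had already been taken out of the chondrocyte gates. The check could therefore see only doublets with fewer or weaker blood markers. In the unsplit gate it was 7 of 14 (50%) against 0.633%, and the mitotic level of that gate is therefore not read as one of cartilage. Median depth in the growth plate gate was 28025 and 15705 UMIs in cells with at least 5 mitotic members and 15246 and 8552 in cells with none. The part of depth in the choice of these cells was not tested.

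Cells chosen for mitotic members in cartilage and in blood were compared for the rest of the module, as a description in libraries 2 and 3 (for a mitotic member, at least 5 of the other mitotic members were asked for). Every one of the 17 S-phase members was lower in growth plate cells than in erythroid cells, with a median ratio of 0.284 and 0.226. The mitotic members had a median ratio of 0.838 and 0.775. Mcm2 had 24.2 and 18.5 CPM in growth plate cells against 160 and 179 CPM in erythroid cells, and Ccne1 16.8 and 9.64 CPM against 121 and 130 CPM. Cdc20 stood the other way, with 139 and 147 CPM against 82.2 and 88.7 CPM.

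For S-phase members granulocytes and leukocytes lay between. Against them these members had a median ratio of 0.544 and 0.432, with 15 of 17 below 1 in each library (Tk1 and Rrm1 were above). The mitotic members had a median ratio of 1.35 and 1.55. Cenpf, a kinetochore protein of late G2, was furthest, at 363 and 425 CPM against 89.5 and 98.2 CPM. S-phase UMIs per mitotic UMI were 0.296 and 0.229 in these growth plate cells, 0.831, 0.668 and 0.622 in erythroid cells and 0.644, 0.605 and 0.550 in granulocytes. In pan leukocytes they were 0.799, 0.740 and 0.752, above the erythroid cells in libraries 2 and 3. By this measure the leukocytes did not lie between.

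**Figure D4:**
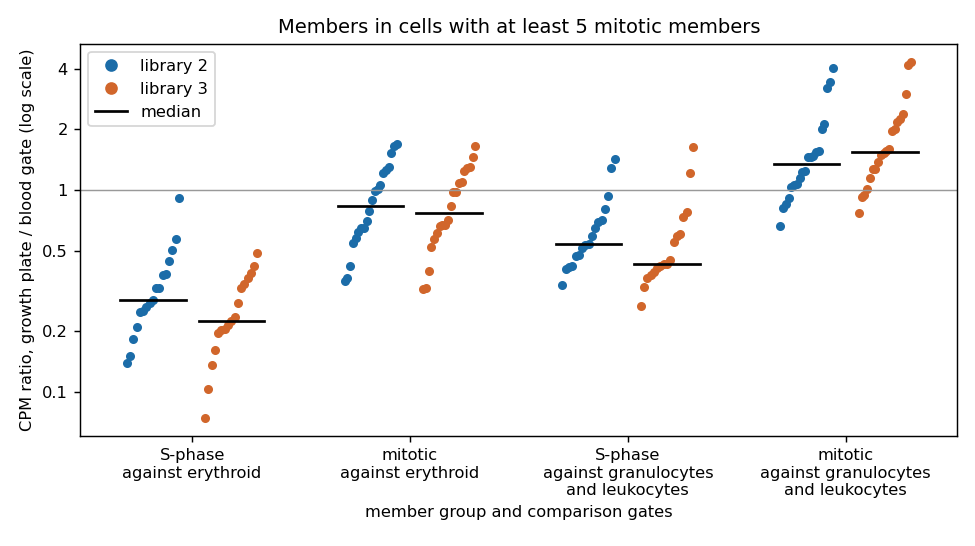
Ratio of each member's level in growth plate cells to that in erythroid cells or in granulocytes and leukocytes (log axis), among cells with at least 5 mitotic members, for libraries 2 and 3, with 1 point per member and the median as a bar. The S-phase points lie mostly below 1 (medians 0.226 to 0.544), while the mitotic points spread around 1 (medians 0.775 to 1.55).

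Zone markers were then read in growth plate cells with at least 5 mitotic members against those with none, in libraries 2 and 3. The cells were chosen by members and the gate by cartilage markers, so these values are given without a test. Col2a1, the main collagen of cartilage, had 46078 against 41631 CPM and 44945 against 37037 CPM, and Matn3 2243 against 1838 and 2257 against 1694 CPM. Acan, which encodes aggrecan, was lower, at 2700 against 3268 and 2627 against 3134 CPM, as was Sox9, the master factor of cartilage, at 1180 against 1491 and 1382 against 1594 CPM. Markers of other zones went in both directions. Ibsp had 64.3 against 472 CPM and 60.1 against 1121 CPM, Prg4, lubricin of the joint surface, 129 against 222 and 228 against 383 CPM, and Wif1, a secreted Wnt antagonist, 49.0 against 140 and 49.7 against 211 CPM. Pth1r, the receptor of parathyroid hormone-related protein, was higher, at 294 against 253 and 222 against 194 CPM, while Panx3, Sfn and Tnfaip6 were lower in library 2 and higher in library 3. Prkg2, a marker used for the gate, was lower, at 433 against 631 and 372 against 510 CPM.

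Regulators outside the module varied in the same cells. Skp2, which tags kinase inhibitors for degradation, had 34.9 against 3.01 and 43.0 against 2.78 CPM, and Cdk2, the kinase of S phase, 21.1 against 4.13 and 16.3 against 4.53 CPM. Ccnd1, cyclin D1, was lower, at 167 against 254 and 220 against 266 CPM. So was Ccnd2, cyclin D2, at 10.4 against 25.9 and 6.68 against 34.7 CPM. Ccnd3 showed no common direction, while Cdk4 and Cdk6 were higher in both libraries. Among the inhibitors of cyclin-dependent kinases, Cdkn2c (p18) had 122 against 23.3 and 126 against 14.1 CPM and Cdkn2d (p19) 214 against 65.8 and 249 against 73.3 CPM. Cdkn1c (p57) was higher as well, at 302 against 185 and 380 against 233 CPM, and so was Cdkn1b, at 36.4 against 21.9 and 27.4 against 20.4 CPM. Cdkn2a had 14.1 against 1.12 and 13.4 against 0.412 CPM, from 46 and 18 UMIs in the cells with mitotic members. Cdkn1a (p21) showed no common direction, at 330 against 345 and 510 against 379 CPM, nor did Cdkn2b, at 3.98 against 4.47 and 4.45 against 4.22 CPM.

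Lists of related genes were read from the tests of whole gates. In the growth plate gate against other chondrocytes, 8 of 33 other S-phase genes rose and none fell (5.82% and 10.6% of all genes did), with a median log2 difference of 0.47. E2f8, a late repressor of E2F targets (2.78 ± 0.35, adjusted p = 1.1e-06), Exo1, an exonuclease (1.70 ± 0.41, adjusted p = 0.0043), and Rad51ap1, a recombination factor (1.59 ± 0.34, adjusted p = 0.0012), moved furthest in edgeR. Of 51 other G2 and M genes 32 rose and 1 fell, with a median of 1.19, led by Pbk (2.24 ± 0.37), Kif15 (2.19 ± 0.34) and Cdca3 (2.19 ± 0.40). Of 65 other replication-dependent histones 47 were tested, 18 rose and 1 fell. Hist4h4 fell by 2.76 on the log2 scale, with 18 UMIs in the growth plate gate against 206. Hist1h2ab rose by 2.35, with 430 UMIs against 154. The rise of Hist1h2bn by 2.33 rests on only 15 UMIs against 3. The medians compare with −0.07 over all genes. Without library 1, 20 other S-phase genes rose and 3 fell, and 44 other G2 and M genes rose, where 44.8% of all genes were called.

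G1 regulators differed between cartilage gates in both directions. Ccnd2, cyclin D2, fell by 2.42 on the log2 scale (SE 0.31, adjusted p = 7.2e-07, edgeR), from 159, 134 and 176 CPM elsewhere to 99.2, 21.7 and 31.4 CPM in the growth plate gate. Ccnd1, cyclin D1, rose from 14, 67.8 and 60.4 CPM to 99.2, 232 and 261 CPM (1.90 ± 0.46, adjusted p = 0.0057), and its kinase Cdk6 from 33.4, 32.5 and 31.5 CPM to 423, 123 and 117 CPM (2.14 ± 0.33, adjusted p = 1.8e-05). For all 3 genes the groups did not overlap. Of the 9 genes in this list, 3 rose and 1 fell, against 16.4% of all genes called in either direction. Of 16 E2F and pocket protein genes 3 rose and 1 fell, led by Foxm1 (1.77 ± 0.41), E2f7 (1.59 ± 0.44) and Mybl2, which encodes B-Myb (1.46 ± 0.34). Among the 6 kinase inhibitors tested, Cdkn1a fell by 1.31 (adjusted p = 0.042) while Cdkn2b and Cdkn2c rose by 1.14 and 0.86. These lists are short, and their shares of calls are not read as set apart from that of all genes. Of the genes named for the 6 lists, E2f8, Pbk, Ccnd1, Ccnd2, Cdk6 and Hist1h2ab were still called without library 2, and E2f8, Kif15, Ccnd2, Cdk6 and Hist1h2ab without library 3. Without library 1 they were all called except Cdkn2b, which was not tested there.

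Against the Ibsp-high gate, 6 of 33 other S-phase and 29 of 51 other G2 and M genes were higher, against 7.37% of all genes, with E2f8 (3.59 ± 0.52) and Pbk (3.08 ± 0.47) furthest. Ncapg, a condensin subunit, was higher by 2.69 ± 0.62 and Hmmr by 2.52 ± 0.55. Exo1 had 103 UMIs in the growth plate gate (3194 cells) and 3 in the Ibsp-high gate (855 cells). Among E2F and pocket proteins Foxm1 (2.15 ± 0.69) and Tfdp1, the partner of E2F (0.96 ± 0.27), were higher and Rbl2, a pocket protein, lower (−0.73 ± 0.24). Of 51 other histones 8 were higher and 1 lower, near the 14.5% of all genes called, with Hist1h3c (2.95 ± 0.73) and Hist1h2ab (2.79 ± 0.69) in front and Hist1h2af at 59 UMIs against 1. Cdk6 (1.24 ± 0.33) and Cdkn2b (2.12 ± 0.55) were higher. Ccnd1 (2.54 ± 0.44) and Ccnd2 (−2.07 ± 0.34) again moved in opposite directions, and Cdkn1a was lower (−1.45 ± 0.46, adjusted p = 0.029, edgeR), at 496, 350 and 402 CPM against 1670, 701 and 869 CPM with no overlap. Of the genes named here, Ccnd1, Pbk and Hmmr were still called without library 2, E2f8 alone without library 3, and all but Hist1h2af without library 1.

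Against the CAR gate, Ccnd1 was higher by 3.97 ± 0.50 and Rb1, the retinoblastoma protein that restrains E2F, lower (−1.78 ± 0.30, adjusted p = 2.6e-06, edgeR). Several of the genes that differed most had hardly a UMI in CAR cells, and for these the UMIs over all libraries are given in place of a fold. Exo1 had 103 in the growth plate gate against 0, Pimreg 159 against 0, Hist1h3b 175 against 0, E2f8 350 against 1, Hist1h2ab 430 against 1 and Cdca3 1199 against 3. Hmmr (4.54 ± 0.85) and Hist1h4i (4.21 ± 0.58) were higher as well, while Brip1, a helicase of DNA repair, was lower (−2.79 ± 0.41). Of the regulators, Cdk6 (1.76 ± 0.34), Skp2 (1.66 ± 0.45), Mybl2 (1.35 ± 0.55), Cdkn2b (3.42 ± 0.69) and Cdkn2d (2.19 ± 0.36) were higher, and Lin54, a subunit of the complex that binds the CHR (−0.81 ± 0.25), and Cdkn1b, which encodes p27 (−0.95 ± 0.25), were lower. Exo1, Pimreg, Hist1h2ab and Mybl2 were not called without library 1, and Skp2, Mybl2, Lin54 and Cdkn1b were not called without library 2 or without library 3. These comparisons use the same growth plate sums and are not independent of each other.

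Of 7 inhibitors 2 were higher and 2 lower in the haematopoietic gates, a share near the 55.3% of all genes called there. Cdkn1c had 1.71, 10.7 and 12.8 CPM in blood against 123, 188 and 184 CPM in mesenchyme (−4.58 ± 0.50, adjusted p = 2.1e-06, edgeR), and Cdkn1a 59.3, 133 and 172 CPM against 657, 469 and 557 CPM (−2.33 ± 0.34, adjusted p = 8.5e-06). 48 of the 52 other histones tested were higher in blood. E2f2, an activating E2F, was higher by 5.76 ± 0.44 (adjusted p = 1.4e-08), and Ccnd1 lower (−2.75 ± 0.53, adjusted p = 0.00082). Mybl2 (4.22 ± 0.44), Rbl1 (3.09 ± 0.40), Cdc25a (2.79 ± 0.36), Cdk2 (2.26 ± 0.37) and Cdkn1b (1.02 ± 0.31) were higher, the last not called without library 2 or without library 3. 32 of 33 other S-phase genes were higher, led by Rad51ap1 (5.17 ± 0.46), E2f8 (4.66 ± 0.72) and Fen1, a nuclease of the lagging strand (4.63 ± 0.40). Of 51 other G2 and M genes 50 were higher and 1 lower, led by Kif15 (4.66 ± 0.43), Knl1, a kinetochore scaffold (4.57 ± 0.41), and Cdca8 (4.43 ± 0.78). Among histones Hist1h2ad (6.62 ± 0.74) and Hist1h2ae (6.42 ± 0.59) were far higher, and Hist3h2ba had 148 UMIs in blood against 3 in mesenchyme. Without library 1, Hist1h2ad was not tested.

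The genes outside the fixed lists whose pattern over the 53 sums was most like the mean of the mitotic members were Esco2, an acetyltransferase of cohesin (Pearson's r = 0.98), Neil3, a DNA glycosylase (0.97), and Depdc1a (0.97), followed by Ncaph, Cenpm, Cenpw, Lockd, Cenph, Fignl1 and Polq (0.96 to 0.97).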

How the data were processed

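The 3 libraries were made with a 3′ droplet kit (version 3.1). The deposited matrices hold raw UMI counts per gene and barcode, which the authors made with Cell Ranger 7.1.0 on build mm10, per the submitters' processing notes. Whether intronic reads were counted is not given in the sources used here. Gene lists beside them name the rows and barcodes, and no column belongs to another series.

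A barcode was kept if it had 200 genes or more and no more than 20% of its UMIs from mitochondrial genes. Doublet scores came from Scrublet in scanpy 1.11.5, whose automatic threshold marked 42, 1 and 0 barcodes and was not used. The highest scores were removed instead, 0.8% per 1000 cells (51, 362 and 837 barcodes). A cell entered a gate with at least 3 markers of its list and a mean standardised level above 0.5, and a chondrocyte gate with at least 5 of 10 cartilage markers and at least 2 of a zone. Chondrocyte gates took only cells that no other gate had taken. These limits were set after the marker distributions had been seen. 667, 131 and 468 cells stayed without a gate and enter no comparison. A member group was counted as seen in a cell when at least 2 of its genes had a UMI.

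UMIs were summed per gate and library (at least 10 cells) and fitted over all gates with edgeR 4.0.16 (TMM, filterByExpr, quasi-likelihood, library as a block) in R 4.3.3. For merged classes the merged sum replaced its parts. The block was used because the compared sums come from the same libraries. Adjusted p under 0.05 was the threshold. DESeq2 1.42.0, other scalings, filters, gates and cells, clusters made without the cell cycle genes and leaving out each library were alternatives. A further one, without the unsplit gate, was added after seeing the data. The fits were tested on simulated data.

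The members and lists were chosen with earlier results of these data known. By the rule for names, the text gives from each list the 3 genes with the largest absolute difference past the threshold in each comparison, or all where fewer passed, and the 10 genes most like the mitotic mean. 1 gene that the rule selects is not reported here. Zone markers, and the inhibitors and regulators given in cells with mitotic members, were named outside that rule, with their values known. Genes with a microRNA or small RNA in them (such as Mcm7) were counted as the authors' tables give them.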

Additional observations from a re-analysis of the deposited data

Results flagged for a closer look

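Cells that entered no comparison also held mitotic members, which was noted as a signal outside the measurements reported above. Among cells without a gate, 63 of 667 (9.45%), 4 of 131 (3.05%) and 15 of 468 (3.21%) in libraries 1, 2 and 3 had at least 5 mitotic members. 33, 3 and 10 of them carried at least 2 erythroid or leukocyte markers. Among barcodes removed as likely doublets, 15 of 51 (29.4%), 37 of 362 (10.2%) and 68 of 837 (8.12%) had at least 5. The growth plate gate, for comparison, had 0 of 20, 123 of 1461 and 87 of 1713.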

How the results depend on the processing

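All 40 members stayed higher in blood than in mesenchyme under every alternative. For the growth plate gate against other chondrocytes, the number of members called was 26 to 37 under the alternatives that kept libraries 2 and 3, and the count of all genes called was 3445 with no filter on low counts and 4502 with clusters, which called 13 S-phase members. Leaving out each library in turn gave 1 to 20 mitotic and 0 to 13 S-phase members higher, 0 to 1 lower, and 170 to 5940 genes in all. Ccne2 reversed to −0.0083 with RLE size factors, −0.0081 with DESeq2 and −0.16 without library 2 (0.25 without library 3), and Mcm6 to 0.027 with clusters, none of them past the threshold. The cause was not tested.

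Against the Ibsp-high gate, DESeq2 called 12 mitotic and 2 S-phase members, and the fit without the replicate block called 3 S-phase members and 1395 genes in all. The block changed no other count by over 1.5 times. Leaving out libraries gave 0 to 20 mitotic members, 0 to 6 S-phase members and 99 to 4044 genes. No cluster was led by the Ibsp list, so clusters gave no value here. Against the CAR gate, DESeq2 called 5 S-phase members, and leaving out libraries gave 13 to 16 mitotic members, 2 to 6 S-phase members, 0 to 2 members lower and 2865 to 5374 genes. For blood against mesenchyme the range was 6273 to 9563 genes.

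Shares depended on their definition. The mean share with mitotic members was 10.7% without thinning, 8.76% with at least 1 member and 6.96% in clusters for the growth plate gate (2.23% to 4.96% without a library). The cluster value covers libraries 2 and 3, for which the gate gave 4.96%, since the cluster held 4 cells of library 1. It was 3.41% and 4.09% without thinning and with 1 member in the other chondrocyte gates, 1.05% at 2000 UMIs and 0.309% in clusters (0.363% to 0.983%), and 71.0%, 61.4%, 57.5% at 2000 UMIs and 34.6% with 3 members in blood (44.3% to 51.9%). For S-phase members the growth plate gate had 7.65% at 2000 UMIs, 43.0% without thinning, 17.4% with 1 member, 0.610% with 3 members and, in libraries 2 and 3, 3.79% in clusters against 2.90% in the gate (1.38% to 2.90%). The other chondrocyte gates had 4.62%, 29.1%, 17.5%, 0.214% with 3 members and 1.23% with no doublet removal (1.51% to 1.90%), and blood 58.6%, 76.3%, 63.6% and 27.0% with 3 members (37.8% to 47.9%).

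The number of cells limits library 1, where 0 of 20 growth plate cells allows a share of up to 16.8% (exact interval).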
